A study of Mus musculus with 12 samples.

Results

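Ferroptosis is a form of cell death in which iron drives the peroxidation of membrane phospholipids that carry polyunsaturated fatty acids. The expression of 10 genes that set its fuel, its brakes, and its iron supply was followed here in the mouse adrenal cortex, the tissue that makes corticosteroids. They were taken by symbol as a fixed list, *Acsl4*, *Lpcat3*, *Gpx4*, *Slc7a11*, *Aifm2*, *Tfrc*, *Fth1*, *Ftl1*, *Hmox1*, and *Ncoa4*, and all 10 were found among the 49585 genes of the count files. RNA was sequenced from 12 male C57BL/6J mice, 4 on a low-fat diet (LFD, which the labels call a normal diet), 4 on a high-fat diet (HFD), and 4 on a HFD with icosapent ethyl, the ethyl ester of eicosapentaenoic acid. Diets started at 6 weeks of age and lasted 20 weeks, with 10% of the energy from fat in the LFD and 60% in the HFD, and icosapent ethyl was given in the last 10 weeks after 10 weeks of HFD alone. The labels put a *Fads2*-/- genotype on all 12 mice, LFD controls included, whereas the study's methods describe wild-type animals, and *Fads2* was expressed in every mouse, at 452 to 2182 CPM (reads scaled to library size with TMM factors).

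In the background biology, ACSL4 attaches coenzyme A to long polyunsaturated fatty acids such as arachidonic acid, and LPCAT3 inserts the products into phospholipids, which makes the substrate of peroxidation. GPX4 reduces phospholipid peroxides with glutathione, whose cysteine SLC7A11 brings in as cystine, and AIFM2 (also known as FSP1) recycles coenzyme Q as a separate brake. Transferrin receptor (*Tfrc*) imports iron, ferritin (*Fth1*, *Ftl1*) stores it, NCOA4 delivers ferritin for breakdown, and HMOX1 releases iron from haem. The adrenal cortex is rich in arachidonic acid and in haem-containing P450 enzymes, and ACSL4 is abundant in its steroid-producing cells.

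Messages of iron uptake and storage carry iron-responsive elements, hairpins bound by the iron regulatory proteins ACO1 and IREB2. When bound, the element in the 5′ untranslated region of a ferritin message blocks its translation, and those in the 3′ region of the *Tfrc* message protect it from decay. Hairpins were searched in GENCODE transcripts (GRCm38) as a C, 5 bases, the loop CAGTGN with a last base other than G, and 5 bases that pair with the first 5 (G with T allowed). They are printed 5′ to 3′ on the strand of the gene because they separate the 3 iron genes by the place of the element, and capitals mark the loop. The *Fth1* and *Ftl1* sites lay in the 5′ untranslated region and the 4 *Tfrc* sites in the 3′ untranslated region.
Fth1, chr19:9982732-9982760, plus strand: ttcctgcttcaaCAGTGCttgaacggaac
Ftl1, chr7:45459779-45459807, minus strand: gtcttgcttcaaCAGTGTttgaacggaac
Tfrc, chr16:32631219-32631247, plus strand: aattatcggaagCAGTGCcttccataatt
Tfrc, chr16:32631598-32631626, plus strand: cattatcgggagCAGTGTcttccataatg
Tfrc, chr16:32631663-32631691, plus strand: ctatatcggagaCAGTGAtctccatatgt
Tfrc, chr16:32631710-32631738, plus strand: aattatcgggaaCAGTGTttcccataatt

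Such a match was found in the 5′ untranslated region of 23 of 21200 genes (0.108%) and in the 3′ region of 110 of 21849 genes (0.503%). *Tfrc* was the only gene with at least 4 matches in its 3′ region. The other 7 genes of the list had no match to these letters in their untranslated regions. Counts of RNA bear on message abundance and not on translation.

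The 10 genes spanned a range of more than 3 orders of magnitude in level. Per kilobase of exon, the mean level in LFD mice was highest for the ferritin chains, at 1051 ± 177 CPM per kb for *Ftl1* and 801 ± 44.4 CPM per kb for *Fth1* (SD, n = 4 each). *Gpx4* followed at 239 ± 28.7, *Hmox1* at 114 ± 28.9, *Acsl4* at 79.9 ± 17.9, and *Aifm2* at 38.0 ± 3.09 CPM per kb. *Lpcat3* stood at 27.0 ± 3.58, *Ncoa4* at 7.40 ± 1.11, *Tfrc* at 2.21 ± 0.71, and *Slc7a11*, the cystine importer, at 0.34 ± 0.18 CPM per kb. The mice overlapped between *Ftl1* and *Fth1* and between *Hmox1* and *Acsl4*, and all other neighbours in this order were apart. In HFD mice, *Hmox1* stood above *Gpx4* (308 ± 186 against 257 ± 46.3 CPM per kb) with overlapping mice, and *Acsl4* at 137 ± 28.4 CPM per kb lay below all *Gpx4* values. In HFD mice the ranges of *Ncoa4* and *Tfrc* also overlapped. In icosapent ethyl–treated mice the order was that of LFD mice, with overlaps from *Ftl1* to *Fth1* and from *Gpx4* through *Hmox1* to *Acsl4*.

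The first comparison addresses what the HFD did to these genes in the cortex. *Aifm2* rose 1.72-fold, and it was the only gene of the 10 past the threshold, an adjusted p of 0.05 in the quasi-likelihood test of edgeR, adjusted over all genes tested by the Benjamini-Hochberg method. Across all 15909 genes tested, 1.45% passed it and 0.974% passed it as higher in HFD mice. *Acsl4* and *Aifm2* were higher in all 4 HFD than in all 4 LFD mice, whereas 13.5% of all genes tested had non-overlapping groups in either direction and 7.71% were higher. Fitted log2 fold changes (log2FC, given with the standard error, SE) were above 0 for 8 of the 10 genes, with a median of 0.25, beside a median of -0.015 over all genes tested. An unadjusted p below 0.05 was reached by 4 genes, *Acsl4*, *Aifm2*, *Tfrc*, and *Hmox1*, and by 24.8% of all genes tested. DESeq2's Wald test put 3 past 0.05 (*Acsl4*, *Aifm2*, and *Hmox1*), where it called 11.5% of all genes with an adjusted p.

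**Figure D1:**
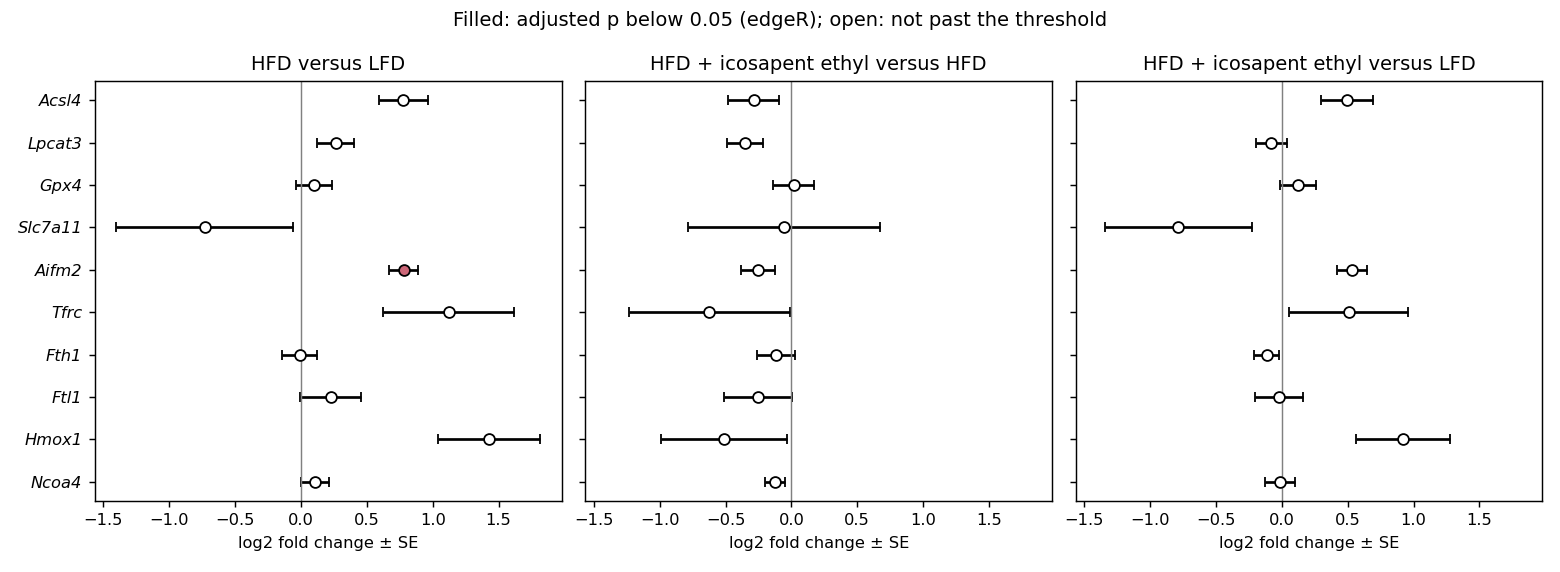
Fitted log2 fold change of the 10 genes (points) with its standard error (bars) in the 3 comparisons of groups of 4 mice. Filled points passed an adjusted p of 0.05, and *Aifm2* in HFD versus LFD mice (0.78 ± 0.11) is the only filled point.

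*Acsl4* (ENSMUSG00000031278, chrX:142317993-142390535, minus strand of GRCm38) was the most abundant long-chain acyl-CoA synthetase gene of the tissue. It was measured at 324, 459, 394, and 551 CPM in LFD mice 2, 5, 6, and 7. HFD mice 1 to 4 had 577, 650, 855, and 891 CPM. The lowest HFD mouse thus stood just above the highest LFD mouse. The log2FC was 0.78 (SE 0.18), a fold of 1.71, and the edgeR adjusted p of 0.0651 missed the threshold. By DESeq2 the adjusted p was 0.00847, and of the 8 edgeR fits that left out a mouse (log2FC from 0.67 to 0.90), only that without HFD mouse 1 passed, with an adjusted p of 0.036. In bulk tissue, a change in the number of cells that express a gene and in the RNA per cell cannot be told apart.

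The 250 bases before a RefSeq start of *Acsl4* and of *Aifm2* are shown because these were the genes with non-overlapping HFD and LFD mice. They come from RefSeq on GRCm38.p6, 5′ to 3′ on the strand of the gene. Capitals mark matches, on either strand, to the GC box GGGCGG and to the half-site TGACG of the cAMP response element, which lies downstream of corticotropin signalling in these cells. The antioxidant response element TGACNNNGC, whose first 4 letters are those of the half-site, was searched too.
Acsl4, chrX:142390536-142390785, minus strand: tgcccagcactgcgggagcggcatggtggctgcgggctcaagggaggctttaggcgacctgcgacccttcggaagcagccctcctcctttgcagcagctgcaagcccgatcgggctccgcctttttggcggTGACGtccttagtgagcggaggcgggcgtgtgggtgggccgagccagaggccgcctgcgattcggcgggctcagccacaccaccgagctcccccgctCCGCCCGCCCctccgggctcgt
Aifm2, chr10:61720399-61720648, plus strand: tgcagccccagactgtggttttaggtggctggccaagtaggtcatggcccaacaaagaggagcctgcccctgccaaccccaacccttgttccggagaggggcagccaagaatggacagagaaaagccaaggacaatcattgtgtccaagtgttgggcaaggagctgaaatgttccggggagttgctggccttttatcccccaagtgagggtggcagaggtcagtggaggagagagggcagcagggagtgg

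The *Acsl4* window was CpG-rich, with 25 CpG and a GC content of 70.8%, and held 2 overlapping GC boxes and 1 half-site. The *Aifm2* window had 2 CpG, a GC content of 57.6%, and none of the 3 motifs. Of 32851 windows of this length, 32.7% held the GC box, 17.8% the half-site, and 10.2% the antioxidant element. Windows were found for 9 of the 10 genes, all but *Hmox1*. The *Aifm2* window lies inside the GENCODE gene (chr10:61715263-61739260), upstream of a RefSeq start within it. The bases before the GENCODE start of *Aifm2* were not searched, so the 2 windows are not alike in position.

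**Figure D2:**
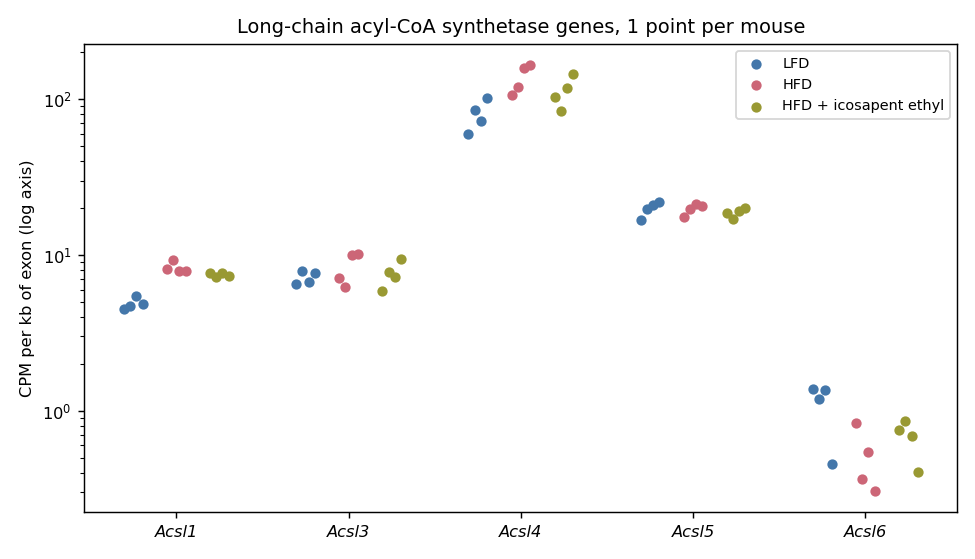
Level of the 5 long-chain acyl-CoA synthetase genes in CPM per kb of exon (log axis), 1 point per mouse, coloured by group. *Acsl4* lies above the other 4 genes in every mouse, and *Acsl1* is apart between LFD and HFD mice.

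Among the 5 *Acsl* genes, *Acsl4* held 65.6, 70.5, 66.1, and 73.8% of the reads in LFD mice 2, 5, 6, and 7, and 73.3, 74.4, 78.5, and 79.5% in HFD mice 1 to 4. Only LFD mouse 7 reached the HFD range. The mean share was 69.0 ± 3.90% in LFD and 76.4 ± 3.03% in HFD mice, a difference of 7.42 percentage points (two-sided exact permutation test, p = 0.0571, adjusted over 6 tests 0.286, smallest p possible 0.0286). Per kb of exon the difference was 8.18 points (exact p = 0.0286), and without *Acsl5* in the sum it was 3.15 points (exact p = 0.2). *Acsl1*, which activates fatty acids for storage and oxidation, rose as well, from 51.2 ± 4.27 to 87.0 ± 6.82 CPM (SD, n = 4 each), with a log2FC of 0.76 (edgeR, SE 0.089, adjusted p = 0.0293). *Acsl3*, *Acsl5*, and *Acsl6* did not pass, with log2FC of 0.21, -0.016, and -1.11 and overlapping groups.

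*Lpcat3* (ENSMUSG00000004270, chr6:124663027-124704418, plus strand), the acyltransferase that acts after ACSL4, did not pass. Its level was 71.4, 95.4, 88.8, and 96.9 CPM in LFD mice 2, 5, 6, and 7 and 85.4, 100.3, 132, and 108 CPM in HFD mice 1 to 4. HFD mice 2, 3, and 4 lay above the LFD range and HFD mouse 1 within it. The log2FC was 0.26 (edgeR, SE 0.14, adjusted p = 0.276).

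Of the genes of antioxidant defence, *Aifm2* (ENSMUSG00000020085, plus strand) changed. LFD mice 2, 5, 6, and 7 had 163, 172, 148, and 145 CPM. HFD mice 1 to 4 had 224, 289, 272, and 299 CPM. The LFD mice were tightly grouped and the nearest HFD mouse was 1, as for *Acsl4*. The log2FC was 0.78 (edgeR, SE 0.11, adjusted p = 0.0376, 1.67e-06 by DESeq2). The direction held in all 8 edgeR fits that left out a mouse, with log2FCs from 0.73 to 0.86. The call held without LFD mouse 2 or HFD mouse 1 (adjusted p = 0.0454 and 0.0113), and it was lost without LFD mouse 5, 6, or 7 or HFD mouse 2, 3, or 4 (adjusted p = 0.06, 0.127, 0.0824, 0.11, 0.0845, and 0.107). In each of these last 6 fits 0 of all genes tested passed by edgeR, with the lowest adjusted p from 0.0538 to 0.104, whereas 78 passed without LFD mouse 2 and 918 without HFD mouse 1, beside 230 with all mice.

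*Gpx4* (ENSMUSG00000075706, chr10:80047166-80056439, plus strand), the central peroxidase, ranged from 357 to 473 CPM on the LFD and from 354 to 515 CPM on the HFD. The ranges overlapped almost completely, and the log2FC was 0.099 (edgeR, SE 0.14, adjusted p = 0.695). *Slc7a11* (ENSMUSG00000027737, chr3:49892526-50443614, minus strand) was measured at 1.96, 5.77, 3.54, and 7.82 CPM in LFD mice 2, 5, 6, and 7 and at 1.38, 0.56, 6.11, and 3.46 CPM in HFD mice 1 to 4. It varied more within each group than between the groups. Its log2FC was -0.73 (edgeR, SE 0.67, adjusted p = 0.533), which was the largest SE of the 10 genes, and leaving out 1 mouse moved the log2FC from -1.39 (without HFD mouse 3) to -0.39 (without HFD mouse 2). It had 24 to 329 reads per mouse.

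**Figure D3:**
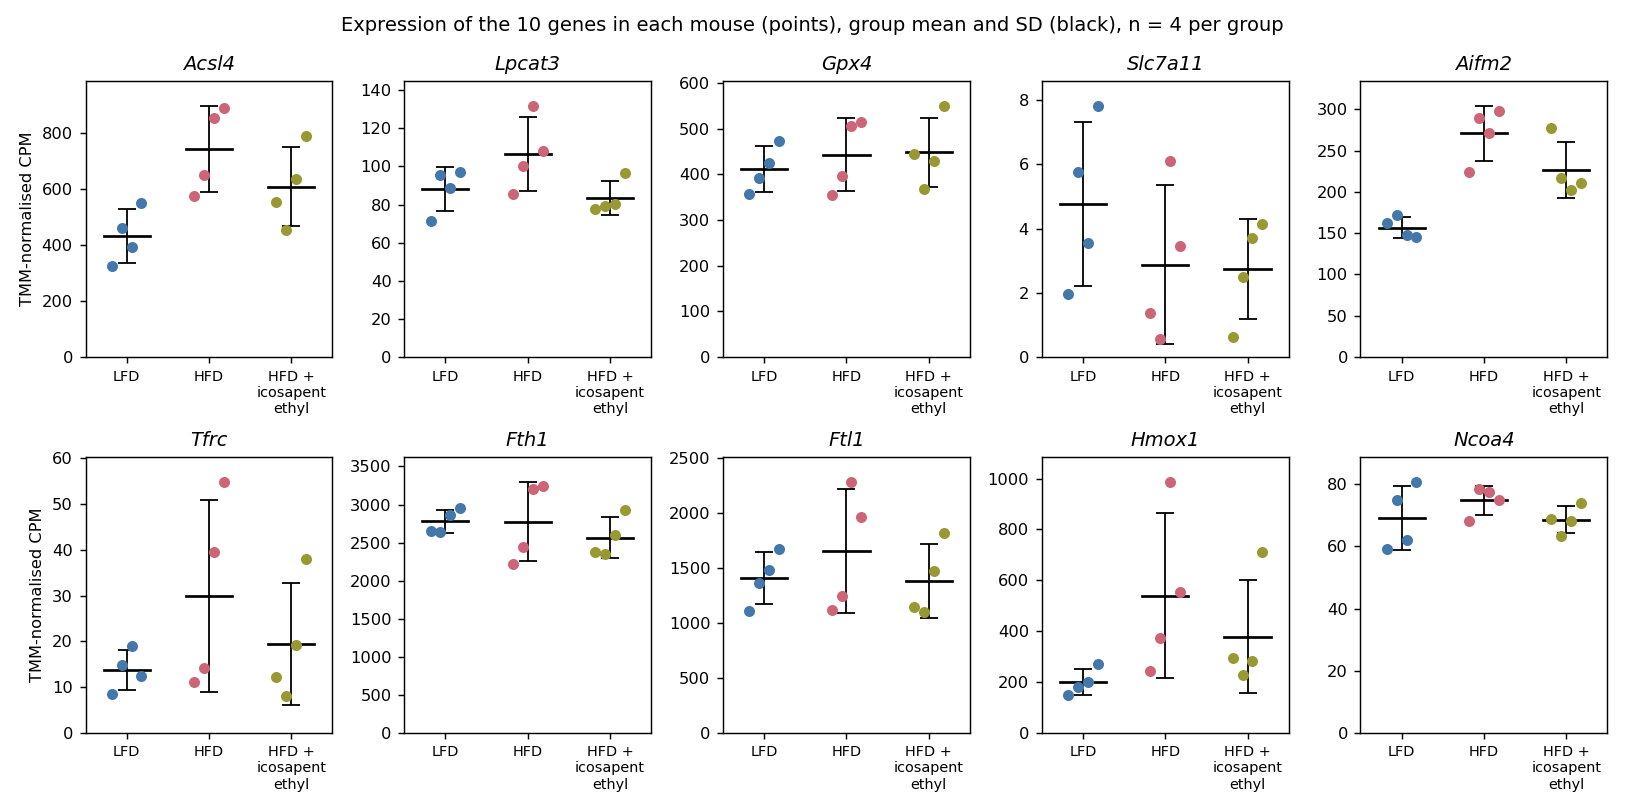
TMM-normalised CPM of the 10 genes in each of the 12 mice (points), with the mean and SD of each group (black, n = 4). *Acsl4* and *Aifm2* are the genes whose HFD mice all lie above the LFD mice, and *Tfrc*, *Ftl1*, and *Hmox1* spread widely within the HFD group.

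*Hmox1*, *Tfrc*, *Fth1*, and *Ftl1* had their widest spread (SD) among HFD mice, and *Ncoa4* among LFD mice. *Hmox1* (ENSMUSG00000005413, chr8:75093621-75100589, plus strand) was at 150, 179, 200, and 269 CPM in LFD mice 2, 5, 6, and 7. In HFD mice 1 to 4 it was at 242, 373, 987, and 553 CPM. HFD mouse 1 lay in the LFD range and the other 3 above it. The log2FC was 1.43 (SE 0.39), a fold of 2.69, with an adjusted p of 0.0844 by edgeR and 0.00649 by DESeq2. Without HFD mouse 1 it was 1.67 with an adjusted p of 0.0324 by edgeR. No other fit without a mouse passed (adjusted p up to 0.201 by edgeR), and without HFD mouse 3 the log2FC was 0.97.

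*Tfrc* (ENSMUSG00000022797, chr16:32608920-32632794, plus strand) had 8.46, 14.9, 18.9, and 12.4 CPM in LFD mice 2, 5, 6, and 7 and 11.1, 14.1, 39.6, and 54.9 CPM in HFD mice 1 to 4. HFD mice 3 and 4 stood above all LFD mice, and HFD mice 1 and 2 among them. Its log2FC of 1.12 (SE 0.50) had an adjusted p of 0.201 by edgeR. It was 0.65 without HFD mouse 4.

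Ferritin heavy chain *Fth1* (ENSMUSG00000024661, chr19:9980598-9985098, plus strand) averaged 2777 ± 154 CPM on the LFD and 2776 ± 522 CPM on the HFD, with a log2FC of -0.0097 (edgeR, SE 0.13, adjusted p = 0.974). Its mean was level while its spread was wider on the HFD, with mice 1 and 2 below and mice 3 and 4 above all LFD values. Light chain *Ftl1* (ENSMUSG00000050708, chr7:45457944-45459884, minus strand) ranged from 1110 to 1679 CPM in LFD mice and was at 1119, 1249, 2287, and 1964 CPM in HFD mice 1 to 4, with mice 3 and 4 above all LFD mice. Its log2FC was 0.23 (edgeR, SE 0.23, adjusted p = 0.586), and 0.044 without HFD mouse 3. *Ncoa4* (ENSMUSG00000056234, chr14:32159865-32179855, plus strand), the ferritin cargo receptor, ranged from 59.2 to 80.8 CPM on the LFD and from 68.1 to 78.4 CPM on the HFD, with a log2FC of 0.10 (edgeR, SE 0.11, adjusted p = 0.58).

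Within each library, the log2 ratio of *Tfrc* to *Fth1* reads, uptake against storage, was -8.30, -7.47, -7.24, and -7.90 in LFD mice 2, 5, 6, and 7. It was -7.65, -7.44, -6.34, and -5.88 in HFD mice 1 to 4, again with mice 3 and 4 above all LFD mice. The means differed by 0.90 (two-sided exact permutation test, p = 0.143, adjusted over 6 tests 0.286). Binding to the printed elements was not measured.

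Besides these 10 genes, a list of 64 other genes of lipid activation, peroxidation, glutathione, other antioxidant systems, iron, and their regulators was examined, of which 61 had enough counts (all but *Alox15*, *Ftmt*, and *Hamp*). In HFD versus LFD mice 2 rose (0.974% of all genes tested did), 2 fell (0.471% did), and 57 did not pass, with a median log2FC of 0.077. DESeq2 called 16, of which 8 were higher and 8 lower, beside 11.5% of all genes with an adjusted p. Of the 22 iron and haem genes tested, 1 rose, 2 fell, and 19 did not pass.

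*Aco1*, the iron regulatory protein that is also the cytosolic aconitase, had 63.4, 73.8, 60.5, and 64.0 CPM in LFD mice 2, 5, 6, and 7 and 87.9, 112, 103, and 102 CPM in HFD mice 1 to 4. All HFD mice stood above all LFD mice, and the log2FC was 0.62 (edgeR, SE 0.097, adjusted p = 0.0376). Its partner *Ireb2* was likewise apart, at 63.7 ± 6.51 and 84.1 ± 5.48 CPM (SD, n = 4 each), but did not pass by edgeR (log2FC 0.39, adjusted p = 0.0722, 0.00751 by DESeq2). Transferrin, *Trf*, the iron carrier of plasma, fell from a low level of 1.40 ± 0.23 to 0.61 ± 0.10 CPM, with a log2FC of -1.21 (edgeR, SE 0.23, adjusted p = 0.047). *Blvrb*, biliverdin reductase B in haem breakdown, fell from 33.3 ± 2.02 to 22.9 ± 2.63 CPM (edgeR log2FC -0.55, SE 0.11, adjusted p = 0.048). *Aco1*, *Trf*, and *Blvrb* kept their call in the fit without HFD mouse 1 alone (adjusted p = 0.0176, 0.0333, and 0.0343), and lost it without any other mouse (up to 0.132, 0.141, and 0.139). Over the 8 fits their log2FCs ranged from 0.57 to 0.68, from -1.32 to -1.09, and from -0.59 to -0.47. *Acsl1* kept it without LFD mouse 2 or HFD mouse 1 (0.038 and 0.0168) and lost it otherwise, at up to 0.104, with log2FCs from 0.70 to 0.82. In 6 of the 8 fits 0 of all genes passed, as given for *Aifm2*.

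**Figure D4:**
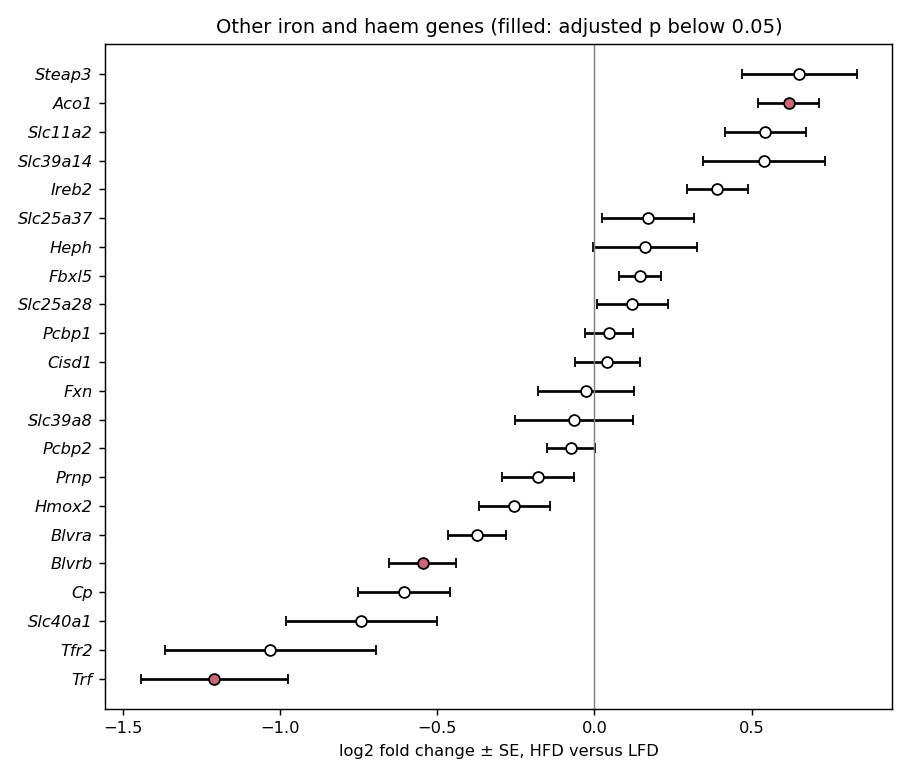
Fitted log2FC with its standard error, HFD versus LFD mice (n = 4 each), of the 22 tested iron and haem genes outside the list of 10. Filled points passed an adjusted p of 0.05, *Aco1* to the right of 0 and *Blvrb* and *Trf* to the left.

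Other genes of these groups did not pass by edgeR. Among the iron genes, the importer *Slc11a2* had a log2FC of 0.54, the ferrireductase *Steap3* 0.65, the exporter ferroportin *Slc40a1* -0.74, and the ferroxidase ceruloplasmin *Cp* -0.61. All 4 passed by DESeq2 (adjusted p = 0.0132, 0.0217, 0.0425, and 0.0132), as did 10 of the 22 iron and haem genes, beside 11.5% of all genes. The groups were apart for *Slc11a2* and *Cp*, as they were for 13.5% of all genes tested. None of the 8 genes of cystine and glutathione metabolism passed by edgeR, with *Cbs*, the entry enzyme of transsulfuration, furthest from 0 at -1.94 (edgeR, SE 0.43, adjusted p = 0.058) from a level of 1.39 CPM. DESeq2 called *Cbs* (adjusted p = 0.000482) and *Gss*, glutathione synthetase (log2FC 0.42 by edgeR, adjusted p = 0.0417 by DESeq2). None of the 6 peroxidation genes tested, the 8 genes of other antioxidant systems, or the 8 regulators passed by edgeR. Among these, DESeq2 called the quinone reductase *Nqo1* (edgeR log2FC -0.70), *Vkorc1l1* (0.33), and the hypoxia factor *Hif1a* (0.51), with adjusted p of 0.0132, 0.0382, and 0.0209, and none of the peroxidation genes. For *Nfe2l2*, whose protein activates *Hmox1* and other antioxidant genes, the log2FC was -0.24 (edgeR, SE 0.34, adjusted p = 0.706).

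The second comparison asks what icosapent ethyl did on top of the HFD. It uses the same 4 HFD mice as the first, so that their values enter both with opposite sign. None of the 10 genes and none of the 61 other genes passed, as none of all 15913 genes tested did (0.0%, edgeR), and DESeq2 called none of them either, with 0.0268% of all genes past its threshold. At an unadjusted p below 0.05 stood *Lpcat3* and, of the 61, *Tfr2*, beside 1.39% of all genes. No member of the 10 had non-overlapping groups, as 1.14% of all genes did. Fitted values were below 0 for 9 of the 10, with a median log2FC of -0.26 beside 0.0040 over all genes.

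*Acsl4* was at 554, 455, 636, and 788 CPM in icosapent ethyl–treated mice 1 to 4. Mice 1 and 2 lay below all HFD mice, and mice 3 and 4 among them. The log2FC was -0.29 (edgeR, SE 0.20, adjusted p = 0.9997). *Lpcat3* was at 77.6, 79.1, 80.4, and 96.5 CPM, with 3 mice below every HFD mouse and mouse 4 within their range, a log2FC of -0.35 (edgeR, SE 0.14, adjusted p = 0.9997). *Aifm2* was at 277, 217, 202, and 211 CPM, where 3 mice were below every HFD mouse and mouse 1 was among them, a log2FC of -0.26 (edgeR, SE 0.13, adjusted p = 0.9997).

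Against the HFD mouse of the same number, *Acsl4* and *Lpcat3* were lower in all 4 treated mice, as 5.84% of all genes tested were, and each of the other 8 genes was lower in 2 or 3 of 4. With the number as a block, the log2FC was -0.29 for *Acsl4* and -0.34 for *Lpcat3* (edgeR, adjusted p = 0.889 each).

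The remaining genes did not pass either. The log2FC was 0.016 (SE 0.16) for *Gpx4* and -0.055 (SE 0.73) for *Slc7a11*. It was -0.62 (SE 0.61) for *Tfrc*, -0.12 (SE 0.15) for *Fth1*, and -0.25 (SE 0.26) for *Ftl1*. For *Hmox1* it was -0.51 (SE 0.48) and for *Ncoa4* -0.12 (SE 0.078). Leaving out HFD mouse 3 gave -0.044 for *Hmox1* and -0.058 for *Ftl1*, and leaving out HFD mouse 4 gave -0.15 for *Tfrc*, whereas without treated mouse 4 *Hmox1* was at -1.01 and *Tfrc* at -1.19. The *Acsl4* share of *Acsl* reads was 73.9 ± 3.70% with icosapent ethyl, 2.45 points below the HFD mean (two-sided exact permutation test, p = 0.343), and the log2 ratio of *Tfrc* to *Fth1* was 0.46 lower (p = 0.486 by the same exact test). Of the 61 other genes, the lowest p was that of *Tfr2*, transferrin receptor 2, at 0.54 ± 0.18 CPM in HFD and 0.95 ± 0.19 CPM in treated mice (edgeR log2FC 0.80, SE 0.30, adjusted p = 0.9997). *Acsl1* (-0.15), *Aco1* (-0.23), and the zinc and iron importer *Slc39a14* (-0.37) followed.

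Icosapent ethyl–treated and LFD mice differed in both diet and supplement, and this comparison shares its mice with the other two. Here too none of the 10 and none of the 61 passed, as none of all 15935 genes tested did (0.0%, edgeR), whereas DESeq2 called *Aifm2*, *Acsl1*, and *Cbs* and 2.58% of all genes. *Aifm2* was higher in all 4 treated than in all 4 LFD mice, at 227 ± 34.3 against 157 ± 12.7 CPM (SD, n = 4 each), as 4.04% of all genes were, and 7.73% were apart in either direction. Its log2FC was 0.53 (SE 0.12, adjusted p = 0.184 by edgeR and 0.00988 by DESeq2). *Acsl4* (log2FC 0.49, SE 0.20, edgeR adjusted p = 0.33) and *Hmox1* (log2FC 0.92, SE 0.36, edgeR adjusted p = 0.318) overlapped with LFD mice, and without treated mouse 4 the *Hmox1* value was 0.42. An unadjusted p below 0.05 was reached by these 3 of the 10 genes and by 14.0% of all genes.

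For the other 7 the log2FC was -0.79 for *Slc7a11*, 0.51 for *Tfrc* (-0.055 without treated mouse 4), and 0.12 for *Gpx4*, and between -0.12 and -0.013 for *Fth1*, *Lpcat3*, *Ftl1*, and *Ncoa4*. The *Acsl4* share was 4.96 points and the log2 ratio of *Tfrc* to *Fth1* 0.44 above LFD mice (two-sided exact permutation tests, p = 0.143 and 0.4). Of the 61 other genes, *Acsl1* had the lowest p, with a log2FC of 0.61 (edgeR, SE 0.083, adjusted p = 0.153), and the groups were apart. *Cbs* (-1.21), *Cp* (-0.58), and *Ireb2* (0.34) followed with adjusted p from 0.203 to 0.232 by edgeR.

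**Figure D5:**
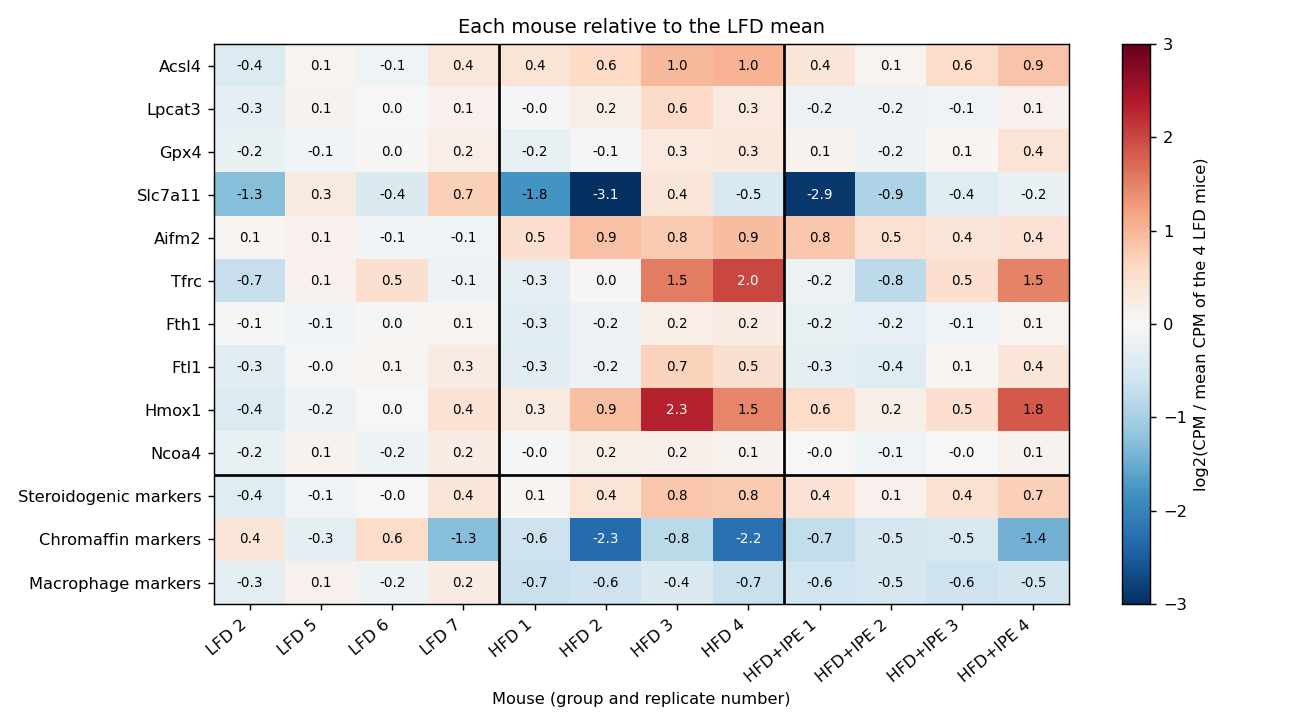
Log2 of the CPM in each mouse over the mean of the 4 LFD mice for the 10 genes and for the summed CPM of 3 marker lists, with mice in columns by group and replicate number. HFD mice 3 and 4 and icosapent ethyl–treated mouse 4 are high in *Acsl4*, *Tfrc*, *Ftl1*, *Hmox1*, and the steroidogenic sum.

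Mice differed within groups along a line that many of the genes followed. HFD mice 3 and 4 and treated mouse 4 had the 3 highest values of *Acsl4*, *Gpx4*, *Tfrc*, *Ftl1*, and *Hmox1*. The same 3 mice had the highest summed CPM of 7 steroidogenic markers, at 94420, 91140, and 87690. That sum ranged from 41300 to 68620 CPM in LFD, from 55060 to 94420 in HFD, and from 57730 to 87690 in treated mice. All 7 genes had fitted values above 0 in HFD versus LFD mice and 0 of the 7 in treated versus HFD mice, of which 0 passed by edgeR. Chromaffin markers of the adrenal medulla (7 genes) summed to 4980 to 17680 CPM in LFD, 2436 to 7840 in HFD, and 4429 to 8594 in treated mice. Their signs were opposite, with 0 of 7 fitted values above 0 in HFD versus LFD mice and all 7 in treated versus HFD mice, of which 0 passed by edgeR. Macrophage markers (8 genes), cells that recycle haem iron, summed to 426 to 618 CPM in LFD, 326 to 387 in HFD, and 341 to 368 in treated mice. The LFD and HFD sums did not overlap, as 13.5% of single genes tested did not in either direction. Of the 8 genes, 3 fell in HFD mice by edgeR, beside 0.471% of all genes tested, and 2 had fitted values above 0. In treated versus HFD mice 6 of the 8 were above 0 and 0 passed. *C1qa*, *C1qb*, and *C1qc* had the highest CPM of the 8 in every mouse and weigh most in the sum. Erythroid markers (7 genes) summed to 373 to 1315, 538 to 736, and 628 to 833 CPM in the 3 groups, with the same signs as the chromaffin markers in these 2 comparisons and 0 passing. Adipocyte markers (6 genes) summed to 132 to 239, 198 to 267, and 145 to 246 CPM, and endothelial markers (5 genes) to 636 to 972, 677 to 888, and 565 to 812 CPM. *Plin1* had the highest CPM of the 6 adipocyte genes in every mouse. Fitted values were above 0 for 4 of the 6 and 2 of the 5 in HFD versus LFD mice. In treated versus HFD mice they were above 0 for 3 of the 6 and 0 of the 5, with 0 passing by edgeR in either comparison. No marker was at 0 in all mice, and the part of these lists in the results was not tested.

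Over the 12 mice, *Acsl4* and *Hmox1* had the highest Spearman's rho among the 45 pairs of the 10 genes. It was 0.923, and Pearson's r of their log2 CPM was 0.911 (permutation tests with 100000 draws, adjusted p = 0.00225 and 0.00135). Pearson's r was 0.913 without the 2 mice farthest from the *Acsl4* median and 0.836 within groups. Within groups this pair did not stand out. There *Acsl4* gave an r of 0.921 with *Gpx4*, 0.898 with *Ftl1*, 0.833 with *Lpcat3*, 0.827 with *Tfrc*, 0.808 with *Fth1*, 0.805 with *Ncoa4*, and 0.698 with *Slc7a11*. *Fth1* and *Ftl1*, the chains of the ferritin shell, gave an r of 0.913 and a rho of 0.86 (permutation tests, adjusted p = 0.0018 and 0.00776), with 0.849 without the 2 farthest mice and 0.952 within groups. *Acsl4* and *Aifm2* gave an r of 0.697 and a rho of 0.699 (permutation tests, adjusted p = 0.0281 and 0.0453), but this relation did not hold within groups, where r was 0.035. The permutation p values of these pairs refer to all 12 mice together, so differences between groups enter them.

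By the closeness of their log2 CPM to that of *Acsl4* over the 12 mice, the first 5 of 9478 genes with a mean of at least 10 CPM were *Me1* (r = 0.991, rho = 0.972), *Cul3* (0.990, 0.937), *Acly* (0.980, 0.965), *Arhgap21* (0.978, 0.972), and *Acsf2* (0.977, 0.986). *Me1*, malic enzyme, supplies NADPH, and *Acly* makes cytosolic acetyl-CoA. *Me1* averaged 2769 ± 474 CPM on the LFD, 3836 ± 523 CPM on the HFD, and 3361 ± 539 CPM with icosapent ethyl (SD, n = 4 each). These are descriptions over mice that share groups and libraries, with no test.

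Overlapping exons and the counts of similar gene copies were examined for reads that the 10 genes might share with other genes. Their exons overlapped no other gene on the same strand except *Ftl1* with the small gene *Gm22133*. *Ftl1-ps1*, named as a ferritin copy but annotated as protein-coding, had at most 239 reads in a mouse, against at least 41644 for *Ftl1*. Ferritin copies annotated as processed pseudogenes had at most 16 reads (*Ftl1-ps2*). *Gpx4-ps2* had 614 to 1377 reads against at least 13972 for *Gpx4*, and how reads were split between near-identical copies is not known.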

How the data were processed

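Groups were taken from the labels, and each library is 1 labelled mouse. The authors made strand-specific libraries, trimmed adaptors with cutadapt, aligned reads to GRCm38 with STAR, and counted them on GENCODE M12 genes with HTSeq 0.6.1p1 (reverse strand, minimum alignment quality 20). The deposited values are raw read counts per gene, with totals from 34785979 to 67295963 per mouse. Symbols and coordinates came from GENCODE M21 for 49326 of 49585 genes. No 2 libraries were copies (66 pairs, lowest chi-square per degree of freedom 24.5).

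The quasi-likelihood test of edgeR 4.0.16 (R 4.3.3, robust fit) was run on the counts of the 2 groups compared, with TMM factors computed from their libraries. Genes were kept by filterByExpr with its minimum of 10 counts, and Benjamini-Hochberg adjusted p had a threshold of 0.05. SE is the log2 fold change divided by the root of F. CPM used TMM factors of all 12 libraries, from 0.883 to 1.14. The edgeR procedure was also run on simulated counts in which genes varied independently. That run does not address how the calls depend on single mice. Ratios within libraries were compared by exact permutation tests with scipy 1.17.1. Alternatives were DESeq2 1.42.0, its size factors, library totals, no filter on low counts, all 12 mice in 1 fit, the replicate number as a block, and leaving out each mouse. Named were all 10 genes, the *Acsl* genes, other listed genes past the threshold or otherwise the 4 with the lowest p in a comparison, and the 5 genes most like *Acsl4*. *Slc11a2*, *Steap3*, *Slc40a1*, *Gss*, *Nqo1*, *Vkorc1l1*, *Hif1a*, *Nfe2l2*, and the correlated pairs were named after their values were seen. The genes and lists were chosen with earlier results of these data known.

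HFD and icosapent ethyl–treated mice share the numbers 1 to 4. With each group mean removed, mice of the same number had correlations of 0.254, 0.122, 0.354, and 0.654 over 15913 genes, all above the criterion of 0.1. Only HFD mouse 4 correlated most with the treated mouse of its own number. HFD mouse 1 correlated more with treated mouse 2 (0.621), HFD mouse 2 with treated mouse 1 (0.474), and HFD mouse 3 with treated mouse 4 (0.388). The number is thus not established as a pairing, and the same-number and block results are descriptions. The labels do not say what the number marks. LFD mice share only the number 2 with the others and were not paired.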

Additional observations from a re-analysis of the deposited data

Results flagged for a closer look

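Of 36 groups of 4 mice examined for a mouse far from the other 3, chance flags about 1 in 20, and 2 stood out, both in treated mouse 4. *Lpcat3* was at 96.5 CPM there and at 77.6 to 80.4 CPM in the other 3 treated mice, a gap of 0.852 of the group's range, past Dixon's critical value. *Hmox1* was at 709 CPM there and at 226 to 293 CPM in the others, a gap of 0.861 of the range. The same mouse had the highest total count and the highest steroidogenic sum of its group (67295963 reads and 87690 CPM). The part of either in these values was not tested.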

How the results depend on the processing

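The counts of calls moved with single mice, among the listed genes as over all genes. In HFD versus LFD mice, the count past the threshold among the 10 genes was 1, and 3 by DESeq2, and ranged from 0 to 3 when 1 mouse was left out (3 without HFD mouse 1, 1 without LFD mouse 2, 0 without any other). Among the 61 other genes it was 4, and 16 by DESeq2, 0 with library totals, and 7 with all 12 mice in 1 fit, and ranged from 0 to 10 when 1 mouse was left out (10 without HFD mouse 1, 1 without LFD mouse 2). Over all genes tested, 230 passed, and 918 without HFD mouse 1, 78 without LFD mouse 2, and 0 without any other mouse. By DESeq2 1933 passed, with library totals 84, and with all 12 mice in 1 fit 556. In treated versus LFD mice the count was 0 among the listed genes, against 1 of the 10 and 2 of the 61 by DESeq2, and 1 of the 61 with all 12 mice. Over all genes it was 0 there, 413 by DESeq2, and 2 with all 12 mice. Library totals moved the median of all genes in HFD versus LFD mice to -0.11, so that values under this setting are relative to that shift. The *Acsl4* share difference of HFD and LFD mice was 8.18 points per kb of exon.

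Among the genes named by rule, the values that turned direction were all of genes that had not passed. In HFD versus LFD mice, *Gpx4* was -0.011 with library totals and *Fth1* 0.0036 by DESeq2, and -0.090 to 0.082 when 1 mouse was left out. In treated versus HFD mice, *Slc7a11* was 0.045 with library totals and -0.40 to 0.62 when 1 mouse was left out, *Gpx4* -0.097 to 0.099, and *Cp* -0.020 to 0.081. In treated versus LFD mice, *Tfrc* (0.51 with all mice) ranged from -0.055 without treated mouse 4 to 0.77, *Ftl1* from -0.18 to 0.078, and *Ncoa4* from -0.081 to 0.074. The causes were not tested.

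With the replicate number as a block, *Slc7a11* in treated versus HFD mice was 0.10, no gene passed (adjusted p of the 10 genes from 0.889 to 0.985), the *Acsl4* share difference was -2.45 points (exact p = 0.125, the smallest that 4 pairs allow), and the *Tfrc* to *Fth1* difference was -0.46 (exact p = 0.25). The exact tests of 4 pairs could not pass the threshold. In the edgeR fits the block changed no call.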
